A study of Mus musculus with 6 samples.

Results

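The genes described here are 38 mouse genes of the amino acid stress response: 7 genes of the ATF4 pathway, 8 enzymes of serine synthesis and one-carbon metabolism, 4 other amino acid synthesis enzymes, 6 amino acid transporter genes and 13 cytosolic aminoacyl-tRNA synthetases. They were taken by gene symbol from a list, and all 38 were found among the 47729 genes of the deposited count tables. RNA was sequenced from FACS-sorted DN1a/b cells, an early population of the thymus that is not yet committed to the T lineage, of C57BL/6 mice. RBPJ is the transcription factor that carries Notch signals to their target genes. In the RBPJ 6 days induced mice its expression was, per the labels, lacking until doxycycline switched it on for 6 days (injected intraperitoneally at 2 mg/ml, then 1 mg/ml in the drinking water). The RBPJ uninduced mice are labelled as lacking its expression and the Control mice as keeping it, although Rbpj RNA was reduced and not absent in the uninduced libraries, as given below. Each group had 2 libraries. The sources used here do not give the promoter or Cre behind the alleles, nor say if the Control and uninduced mice got doxycycline, so effects of doxycycline and of RBPJ cannot be told apart. Nor do they say that the 2 libraries of a group are 2 mice. The p-values therefore measure the spread between libraries, which may be technical.

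When amino acids run short, or when unfolded protein collects in the endoplasmic reticulum, kinases phosphorylate the translation factor eIF2, general protein synthesis slows, and the mRNA of Atf4 is translated more efficiently. The ATF4 protein is a transcription factor that pairs with related factors and switches on genes for amino acid synthesis, for import and for charging of tRNAs. The same enzymes and transporters are also high in cells that grow and divide fast, because nucleotides need one-carbon units and proteins need amino acids. The level of Atf4 mRNA does not measure the ATF4 protein.

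Libraries held 5098927 to 12932928 counts, with RBPJ uninduced replicate 1 and Control replicate 2 (5311391 counts) the shallowest. Levels are given as CPM, a gene's share of its library's counts on a common scale, after TMM scaling, which corrects for differences in RNA composition. Rbpj itself had 198 and 203 CPM in the 6 days induced libraries, 28.2 and 29.98 CPM in the uninduced libraries and 74.1 and 72.9 CPM in the Control libraries. The uninduced pair was the lowest, in the direction of the labels. The Rbpj level in uninduced cells was below that in Control cells (log2 fold change -1.34, SE 0.186, edgeR adjusted p = 0.00495). In the induced libraries it was higher than in Control (1.45, SE 0.182, edgeR adjusted p = 0.0175), which the labels do not state. Markers of the sorted stage were not alike across groups. Kit, a surface receptor of DN1a/b cells, lay between 372 and 631 CPM in all 6 libraries. Cd44, an adhesion receptor of these cells, had 349 and 307 CPM in induced, 198 and 196 CPM in uninduced and 390.2 and 342 CPM in Control libraries. Ptprc, the pan-leukocyte marker CD45, had 587 and 637 CPM in induced, 251 and 345 CPM in uninduced and 656 and 671 CPM in Control libraries. Both were lowest in the uninduced pair. Il2ra, which marks a later stage, had 28.97 and 38.5 CPM in induced, 0.522 and 23.5 CPM in uninduced and 30.2 and 15.9 CPM in Control libraries. Cd24a had 147 and 134 CPM in induced, 119 and 273 CPM in uninduced and 137 and 137 CPM in Control libraries. The libraries also differed in markers of other cells. The summed level of 8 B-lineage markers was 8.92 and 40.3 CPM in the induced libraries, 30.3 and 761 CPM in the uninduced libraries, and 7.01 and 23.7 CPM in the Control libraries, and 3 of the 8 stood at 0 in induced replicate 1, 1 in uninduced replicate 1 and 2 in Control replicate 1. The sum of 8 T-lineage markers was 304 and 365 CPM in induced, 27.99 and 52.6 CPM in uninduced and 529.6 and 825 CPM in Control libraries. For 8 myeloid markers the sums were 742 and 1626 CPM in induced, 4351 and 3269 CPM in uninduced and 571 and 502 CPM in Control libraries. Of tested markers, edgeR called 5 of 7 myeloid, 5 of 7 mast cell and basophil, 4 of 7 erythroid and 1 of 8 B-lineage genes higher in uninduced than in Control cells, and 3 of 6 T-lineage and 2 of 8 later thymocyte genes lower. Of 6 natural killer and innate lymphoid markers 2 were called higher and 1 lower, of 6 dendritic 1 higher and of 5 thymic stromal 1 lower. Of all genes, 2.49% were called higher there and 2.93% lower. In induced over Control, 2 mast cell and basophil, 1 erythroid and 1 natural killer and innate lymphoid marker were called higher, against 0.187% of all genes. The other marker lists held no call in induced over Control. Among the markers Pax5, of B cells, was at 0 in induced replicate 1, and Ptcra, of early T cells, was at 0 in both uninduced libraries. In such sorted pools, fewer cells of a type and less RNA per cell cannot be told apart, and the part that these other cells, or the lower stage markers, play in the results below was not tested.

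Sequences at the gene starts were read because members are described as bound by ATF4 in other cells. In the RefSeq promoter table (build GRCm38.p6; 250 bases before to 50 bases after each start) 31 of the 38 members had a promoter. The CHOP-ATF4 composite motif, TGATGNAAN on either strand, stood in the promoters of 11 of these 31 genes (Aars, Asns, Chac1, Gars, Got1, Iars, Pycr1, Slc7a11, Tars, Trib3 and Yars), against 4.496% of the 27025 genes in the table. The stretches around it are shown for the 2 members with the motif that were called in a comparison below, Asns and Gars, and for 3 others, Chac1, Trib3 and Slc7a11, with the motif in capitals. They run 5′ to 3′ on the gene's own strand. The capitals read as TGATGNAAN in Asns and Slc7a11, and as its reverse complement in Gars, Chac1 and Trib3.

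Asns (chr6:7693214-7693242, minus strand; motif from 23 bases before the start): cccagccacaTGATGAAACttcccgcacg
Gars (chr6:55037960-55037988, plus strand; motif from 31 bases before the start): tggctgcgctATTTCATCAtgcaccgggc
Chac1 (chr2:119351038-119351066, plus strand; motif from 194 bases before the start): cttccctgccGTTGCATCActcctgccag
Trib3 (chr2:152344029-152344057, minus strand; motif from 14 bases after the start): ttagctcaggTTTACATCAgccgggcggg
Slc7a11 (chr3:50443661-50443689, minus strand; the first of 2 matches, from 66 bases before the start): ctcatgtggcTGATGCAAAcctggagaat

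The 250 bases before the start of Gars (chr6:55037751-55038000, plus strand) are given whole, since Gars was the synthetase called in a comparison below.

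Gars promoter: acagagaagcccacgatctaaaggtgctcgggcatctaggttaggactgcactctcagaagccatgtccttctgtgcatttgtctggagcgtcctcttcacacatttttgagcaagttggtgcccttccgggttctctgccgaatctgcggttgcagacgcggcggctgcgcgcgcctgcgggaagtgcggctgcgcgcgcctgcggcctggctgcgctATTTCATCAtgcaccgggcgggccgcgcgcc

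A second motif, the E-box CACGTG (the same on both strands, and with no overlap with TGATGNAAN), to which MYC binds, stood in 4 of the 31 promoters, those of Aars, Aldh18a1, Iars and Tars, against 8.09% of all genes. A match describes letters in this window and shows no binding. The 10 tested members with TGATGNAAN had a median log2 fold change of 0.62 in RBPJ uninduced against Control, and 2 of them were called higher. The 20 members with a promoter lacking it had a median of 0.30, and 2 of them were called higher. The 7 members without a promoter in the table had a median of 0.65, with 1 called higher. Whether these sets differ was not tested. Members with the motif ranged from -3.01 for Slc7a11 to 3.59 for Asns, the lowest and the highest of all tested members. Each end leans on 1 library: Slc7a11 was at -0.38 without Control replicate 2, and Asns at 2.19 without uninduced replicate 2.

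In RBPJ uninduced cells, 5 of the 37 tested members were higher than in Control: Asns, Aldh18a1, Mthfd1, Slc7a5 and Gars. That was 13.5% of the members, against 2.49% of all 18174 genes tested that were called higher and 5.42% called in either direction. None of the members was called lower by edgeR, against 2.93% of all genes. Calls are those with a Benjamini-Hochberg adjusted p under 0.05 over all genes tested, by edgeR's quasi-likelihood test. Trib3 had too few counts to be tested. The 37 members had a median log2 fold change of 0.58, against -0.02 for all genes. Of them 29 lay above 0 (78.4%, against 49% of all genes). At an unadjusted p under 0.05 there were 21 members (56.8%, against 18.8% of all genes), 19 of them higher in uninduced and 2 lower. In 21 members both uninduced libraries lay above both Control libraries (56.8%, against 22.1% of all genes), and in 3 both lay below (22.2% of all genes). The 2 lower at an unadjusted p were the transporter genes Slc7a11 and Slc38a2, which DESeq2 called lower. DESeq2 called 9 members higher. Of all genes it called 719 higher and 942 lower, against 452 and 533 by edgeR.

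After 6 days of induction 3 members were lower than in RBPJ uninduced cells: Slc7a5, Mthfd1 and Shmt2. That was 8.11% of the members, against 0.413% of all genes called lower and 1.96% called in either direction. By edgeR 0 members were called higher, against 1.55% of all genes. The median log2 fold change of the members was -0.56, against -0.03 for all genes. Of the 37, 31 lay below 0 (83.8%, against 51.5% of all genes). At an unadjusted p under 0.05, 21 members were lower (56.8%, against 15.4% of all genes in either direction) and 0 were higher. In 24 members both induced libraries lay below both uninduced libraries (64.9%, against 21.8% of all genes). DESeq2 called 8 members lower and 0 higher. Of all genes it called 379 lower and 662 higher, against 75 and 282 by edgeR. Since this comparison and the one with Control both use the uninduced libraries, the same measurements enter both, and their values are set side by side below without a test of their likeness.

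Between RBPJ 6 days induced and Control, 0 of the 37 members were called in either direction by edgeR, against 0.187% of all genes called, all of them higher in induced. DESeq2 also called 0 of the members, and of all genes 164 higher and 48 lower. The lowest adjusted p among members was 0.783. A single member, Slc7a1, had an unadjusted p under 0.05 (2.70% of the members, against 5.17% of all genes), and the median log2 fold change was -0.08, against -0.02 for all genes. These p-values do not show that the levels were equal, and the 95% intervals say which differences the data still allow. For Slc7a5 the log2 fold change in induced over Control was -0.22 (interval -0.71 to 0.26), for Shmt2 -0.29 (-0.78 to 0.21) and for Mthfd1 -0.12 (-0.81 to 0.57). For Gars it was 0.32 (-0.24 to 0.88). For Asns, with few counts in both groups, it was 0.20 with an interval from -1.43 to 1.83, which leaves room for a change of either sign.

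**Figure D1:**
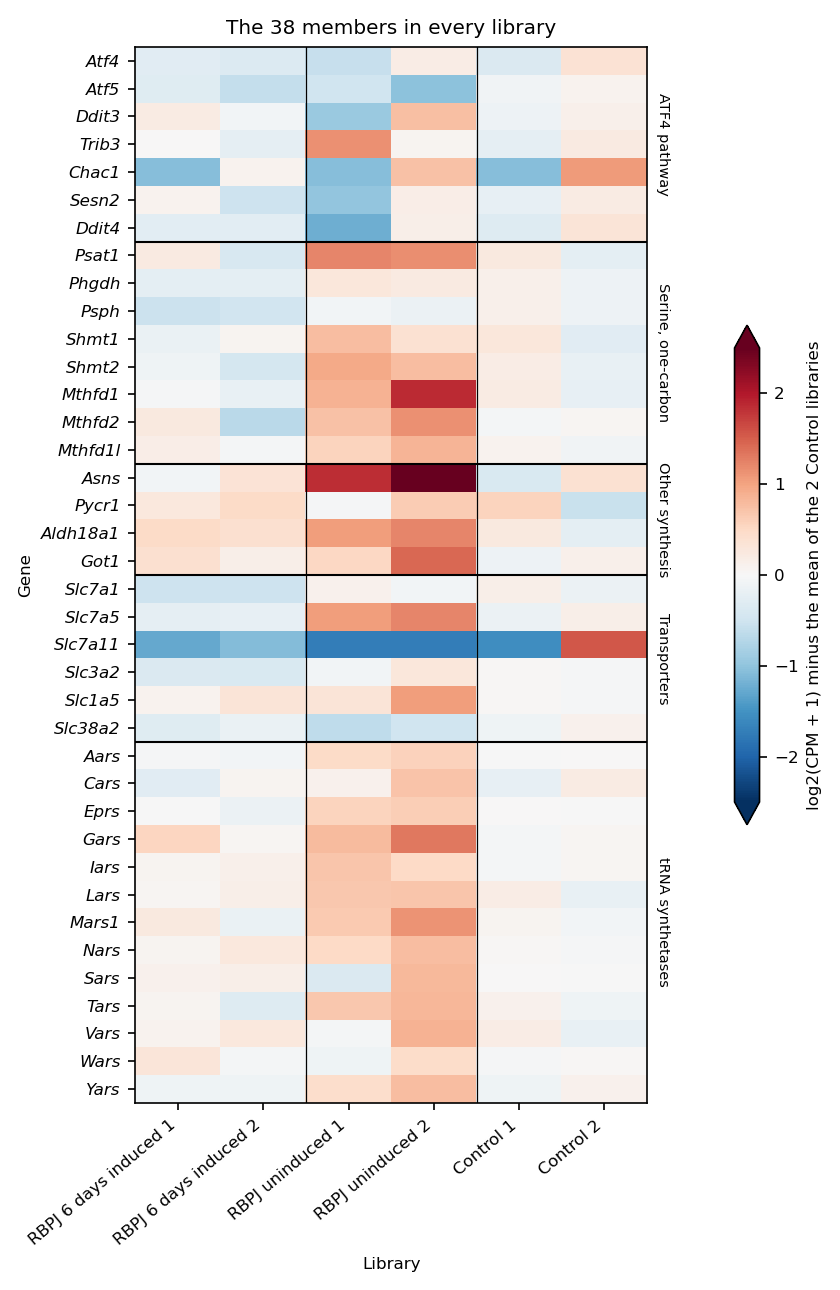
Colours give log2(CPM + 1) of each of the 38 members (rows, in 5 groups) in each of the 6 libraries (columns) minus the mean of the 2 Control libraries; red is above that mean and blue below. Most serine, one-carbon and synthetase rows are red in both uninduced libraries and pale in the induced and Control libraries, while the ATF4 pathway rows differ mainly between libraries of the same group.

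Of the 7 ATF4 pathway genes, 6 were tested, and 0 were called in any of the 3 comparisons, by edgeR or by DESeq2. None of them had an unadjusted p under 0.05. Of all genes edgeR called 5.42% in uninduced over Control, 1.96% in induced over uninduced and 0.187% in induced over Control. A count of 0 among 6 genes is near those shares and does not set these genes apart. The 6 genes had a median log2 fold change of -0.37 in uninduced over Control and 0.01 in induced over uninduced. The direction turned on the uninduced libraries: in uninduced over Control 5 of 6 lay above 0 without uninduced replicate 1 (median 0.12) and 0 of 6 without uninduced replicate 2 (median -1.12). Atf4 was the most highly expressed member per length of transcript (74.6 CPM per kilobase of exon in induced, 84.0 in uninduced and 95.9 in Control cells). Its level was 179.6 and 172 CPM in the induced libraries, 147 and 249 CPM in the uninduced libraries and 171 and 281 CPM in the Control libraries. The groups overlapped, and replicate 2 was the higher in both uninduced and Control pairs. The log2 fold change was -0.19 in uninduced over Control (95% interval -0.84 to 0.46, adjusted p = 0.832) and -0.17 in induced over uninduced (-0.82 to 0.48, adjusted p = 0.845). Without RBPJ uninduced replicate 1 or without Control replicate 2 the first of these was 0.10 or 0.11.

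Ddit3 encodes CHOP, a transcription factor that pairs with ATF4 and is tied to cell death under lasting stress. It had 24.0 and 19.7 CPM in induced, 10.4 and 35.9 CPM in uninduced and 19.0 and 22.8 CPM in Control libraries. The uninduced pair enclosed all 4 other libraries. The mTORC1 inhibitors Sesn2 and Ddit4 split in the same way between the uninduced libraries. Sesn2 had 2.96 and 7.80 CPM there, against 5.79 and 8.14 CPM in Control, and Ddit4 had 4.35 and 12.7 CPM, against 8.91 and 14.5 CPM in Control. In the induced libraries Ddit4 stood at 9.36 and 9.32 CPM.

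The other 3 pathway genes were close to the limit of detection. A count of 3, the smallest taken as detected here, was worth 0.228 to 0.531 CPM, depending on the library. Atf5, a relative of ATF4, had 1.94 and 1.40 CPM in induced, 1.56 and 0.780 CPM in uninduced and 2.44 and 2.83 CPM in Control libraries. The span of Atf5 overlaps that of Nup62 on the opposite strand, a gene with 336 to 1088 counts. Whether their exons overlap was not checked, so the few counts of Atf5 may be less certain. Chac1, which degrades glutathione, had 0 counts in replicate 1 of each group and 1.21 CPM in induced, 2.45 CPM in uninduced and 3.36 CPM in Control replicate 2. Trib3, a pseudokinase that ATF4 induces and that dampens the response, reached 9 counts (1.56 CPM) in uninduced replicate 1 and at most 2 counts in the other 5 libraries. The counts of Chac1 were 0 and 13 in induced, 0 and 22 in uninduced and 0 and 19 in Control libraries, so it differed within every pair, and its interval in uninduced over Control ran from -6.21 to 5.42 on the log2 scale. No difference between groups was shown for Trib3 or Chac1.

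Asns, asparagine synthetase, makes asparagine from aspartate and glutamine and is a textbook target of ATF4. It showed the largest fold change of the members in both comparisons with uninduced cells. It lies at chr6:7675169-7693254 on the minus strand. Its level was 2.03 and 3.07 CPM in the induced libraries, 10.4 and 43.0 CPM in the uninduced libraries and 1.45 and 3.18 CPM in the Control libraries. Both uninduced libraries stood above the 4 others, with replicate 2 well above replicate 1. The counts behind these levels were 23 and 33 in induced, 60 and 386 in uninduced and 19 and 18 in Control libraries. The log2 fold change was 3.59 in uninduced over Control (SE 0.743, 95% interval 1.92 to 5.26, adjusted p = 0.0263) and -3.39 in induced over uninduced (SE 0.722, interval -5.01 to -1.77, adjusted p = 0.0509). Without RBPJ uninduced replicate 2, the library with 761 CPM of B-lineage markers, these were 2.19 (adjusted p = 0.137) and -2.01 (adjusted p = 0.204). Without uninduced replicate 1 they were 4.25 (adjusted p = 2.86e-05) and -4.01 (adjusted p = 8.34e-05). Leaving out a Control library ended the first call (3.11, adjusted p = 0.122, without replicate 1, and 4.09, adjusted p = 0.0626, without replicate 2) and brought the second past the threshold (-3.38, adjusted p = 0.0301, and -3.31, adjusted p = 0.0481). Set against Atf4 in the same library, Asns was 0.0113 and 0.0178 of the Atf4 count in induced, 0.0710 and 0.173 in uninduced and 0.00845 and 0.0113 in Control libraries.

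Of the other synthesis enzymes, Aldh18a1, which makes the precursor shared by proline and ornithine, was also called. It lies at chr19:40550257-40588463 on the minus strand. It had 61.1 and 57.5 CPM in induced, 90.4 and 103 CPM in uninduced and 51.6 and 36.4 CPM in Control libraries. All 3 groups stood apart, in the order uninduced, induced, Control. Its log2 fold change in uninduced over Control was 1.13 (SE 0.233, adjusted p = 0.0263), and without Control replicate 2 it was 0.81 (adjusted p = 0.191). In induced over uninduced it was -0.70 (adjusted p = 0.172) and in induced over Control 0.42 (95% interval -0.10 to 0.94). Got1, which interconverts aspartate and oxaloacetate in the cytosol, had 9.80 and 8.11 CPM in induced, 10.8 and 21.3 CPM in uninduced and 6.55 and 7.96 CPM in Control libraries and was not called in uninduced over Control (adjusted p = 0.209), except without uninduced replicate 1 (1.51, adjusted p = 0.0358). Pycr1, which takes the last step to proline, stayed under 2 CPM in every library.

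Serine is made from a glycolytic intermediate by Phgdh, Psat1 and Psph in turn. Of these 3 genes, Psat1 differed most between the groups. It had 31.4 and 20.0 CPM in induced, 63.5 and 61.2 CPM in uninduced and 31.8 and 22.3 CPM in Control libraries. The uninduced libraries stood close together, above all others. The log2 fold change was 1.196 in uninduced over Control (SE 0.303, interval 0.51 to 1.88, adjusted p = 0.0543) and -1.28 in induced over uninduced (SE 0.302, interval -1.96 to -0.60, adjusted p = 0.0733), just short of the threshold in both. Without uninduced replicate 1 or 2 it was past it in both comparisons (adjusted p = 0.0460 and 0.0335 over Control, and 0.0387 and 0.0299 for induced over uninduced). The first was farther from the threshold without Control replicate 1 (1.51, adjusted p = 0.0915) or 2 (0.87, adjusted p = 0.338). The second was so without induced replicate 1 (-1.61, adjusted p = 0.115) or 2 (-0.93, adjusted p = 0.600).

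Phgdh, the first enzyme, had 93.0 and 92.5 CPM in induced, 134 and 128 CPM in uninduced and 120.1 and 101 CPM in Control libraries. The groups did not overlap, but the log2 fold change in uninduced over Control was 0.25 (interval -0.17 to 0.66, adjusted p = 0.551). Phgdh has 8 processed pseudogenes that match it at 95% identity or more over at least 500 bases, so its count is less certain, though the 1 most like it, Gm7901, took 11 to 33 counts. Psph, the last enzyme, had 9.98 and 10.4 CPM in induced, 14.3 and 13.5 CPM in uninduced and 16.4 and 13.6 CPM in Control libraries, and its log2 fold change in uninduced over Control was -0.12 (interval -0.92 to 0.685). Its span overlaps that of Cct6a on the opposite strand, a gene with 1106 to 2991 counts. Whether exons of Psph and Cct6a overlap was not checked. The strand setting is not given, so reads from any shared stretch may be uncertain. In each library the Psat1 count was 0.337 and 0.217 of the Phgdh count in induced, 0.472 and 0.477 in uninduced and 0.265 and 0.221 in Control libraries.

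One-carbon units pass from serine to folate through Shmt1 in the cytosol and Shmt2 in mitochondria, and the Mthfd enzymes carry them between their oxidation states. Mthfd1, the cytosolic enzyme with 3 activities, was called in both comparisons with uninduced cells. It lies at chr12:76255298-76319803 on the plus strand. It had 91.0 and 82.1 CPM in induced, 170.2 and 343 CPM in uninduced and 107 and 80.3 CPM in Control libraries. Both uninduced libraries stood above all others. The log2 fold change was 1.45 in uninduced over Control (SE 0.310, adjusted p = 0.0297) and -1.57 in induced over uninduced (SE 0.310, adjusted p = 0.0390). Without uninduced replicate 2 these were 0.83 (adjusted p = 0.0403) and -0.96 (adjusted p = 0.0255). The first was not past the threshold without Control replicate 2 (1.15, adjusted p = 0.166), and the second was not without either induced library (adjusted p = 0.0555 and 0.0875).

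Shmt2, at chr10:127517123-127522444 on the minus strand, had 61.5 and 49.0 CPM in induced, 129 and 115 CPM in uninduced and 75.5 and 58.9 CPM in Control libraries. It fell after induction, with a log2 fold change of -1.15 in induced over uninduced (SE 0.221, adjusted p = 0.0357), a call that did not hold without either induced library (adjusted p = 0.120 and 0.364). In uninduced over Control the value was 0.86 (SE 0.221, adjusted p = 0.0559), and 0.92 (adjusted p = 0.0310) without uninduced replicate 2. It was 0.71 (adjusted p = 0.106) without uninduced replicate 1, 1.08 (adjusted p = 0.104) without Control replicate 1 and 0.60 (adjusted p = 0.389) without Control replicate 2. Its cytosolic counterpart Shmt1 had 27.9 and 32.6 CPM in induced, 54.4 and 41.2 CPM in uninduced and 38.1 and 25.6 CPM in Control libraries and was not called in any comparison. The span of Shmt1 overlaps that of Smcr8 on the opposite strand, a gene with 369 to 1028 counts. Whether their exons overlap was not checked, so the count of Shmt1 may be less certain.

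The mitochondrial enzymes Mthfd2 and Mthfd1l also had both uninduced libraries above the others without a call. Mthfd2, a dehydrogenase that is abundant in proliferating and embryonic cells, had 15.8 and 7.92 CPM in induced, 22.6 and 30.4 CPM in uninduced and 12.8 and 13.8 CPM in Control libraries (adjusted p = 0.216 in uninduced over Control). Mthfd1l, which releases formate from mitochondria, had 82.3 and 70.9 CPM in induced, 108 and 133 CPM in uninduced and 78.4 and 68.5 CPM in Control libraries (adjusted p = 0.0856, and 0.0427 without uninduced replicate 1). Over the 8 serine and one-carbon genes, 1 was called higher in uninduced over Control (12.5%, against 2.49% of all genes). There 7 lay above 0 (87.5%, against 49% of all genes), with a median of 0.78. In induced over uninduced 2 were called lower (25%, against 0.413% of all genes). There 8 lay below 0 (100%, against 51.5% of all genes), with a median of -0.90. In induced over Control 0 were called by edgeR or DESeq2, 0 had an unadjusted p under 0.05, and the median was -0.14.

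**Figure D2:**
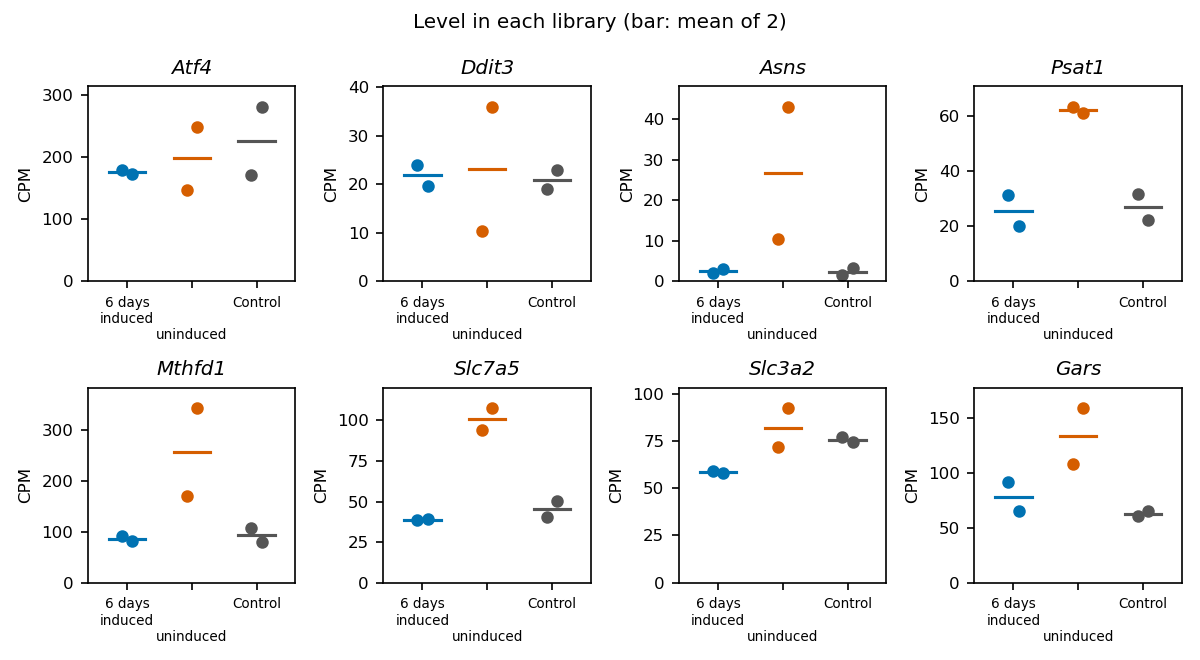
Each panel shows the CPM of 1 member on a linear axis from 0, with a point per library and a bar at the mean of the 2 libraries of RBPJ 6 days induced, RBPJ uninduced and Control cells. Psat1 and Slc7a5 have close uninduced pairs above the others, Asns and Mthfd1 have a wide uninduced pair, and the groups overlap in Atf4, Ddit3 and, for uninduced and Control, Slc3a2.

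Among the 6 transporters edgeR called Slc7a5, in both comparisons with uninduced cells. That was 16.7% of the 6, against 2.49% of all genes called higher over Control and 0.413% called lower after induction. Slc7a5, also known as LAT1, imports leucine and other large neutral amino acids and lies at chr8:121881150-121907694 on the minus strand. It had 38.6 and 39.2 CPM in induced, 93.9 and 107 CPM in uninduced and 40.7 and 50.4 CPM in Control libraries. The uninduced pair was close together and clear of every other library. The log2 fold change was 1.15 in uninduced over Control (SE 0.218, adjusted p = 0.0189) and -1.37 in induced over uninduced (SE 0.219, adjusted p = 0.0178). Without uninduced replicate 2 they were 1.04 (adjusted p = 0.0151) and -1.26 (adjusted p = 0.00591). The first was not past the threshold without either Control library (adjusted p = 0.137 and 0.0595), nor the second without either induced library (adjusted p = 0.135 and 0.114).

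Slc7a5 works only as a pair with the heavy chain that Slc3a2 encodes (CD98), which brings it to the cell surface. Slc3a2 had 59.0 and 58.0 CPM in induced, 71.8 and 92.2 CPM in uninduced and 76.8 and 74.3 CPM in Control libraries. The uninduced and Control libraries overlapped, with a log2 fold change of 0.12 (interval -0.35 to 0.59, adjusted p = 0.860). The ratio of the Slc7a5 to the Slc3a2 count was 0.654 and 0.676 in induced, 1.31 and 1.16 in uninduced and 0.529 and 0.679 in Control libraries. The light chain had more counts than the heavy chain in both uninduced libraries and fewer in the 4 others. Slc7a11, which imports cystine and pairs with the same heavy chain, had 2.47 and 2.98 CPM in induced, 1.56 and 1.56 CPM in uninduced and 1.90 and 23.7 CPM in Control libraries. A single library, Control replicate 2, stood apart: without it the log2 fold change in uninduced over Control was -0.38 (adjusted p = 0.934), against -3.01 with it (adjusted p = 0.147), and without Control replicate 1 it was -3.88 (adjusted p = 0.0234).

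Slc38a2, a carrier of small neutral amino acids that is induced by amino acid starvation, was lowest in the uninduced cells. It had 187 and 207 CPM in induced, 149 and 165 CPM in uninduced and 216 and 249.6 CPM in Control libraries. The 3 groups did not overlap, and the log2 fold change was -0.56 in uninduced over Control (SE 0.175, interval -0.96 to -0.17, adjusted p = 0.107). Slc1a5, a glutamine carrier, had 55.6 and 65.6 CPM in induced, 65.5 and 109 CPM in uninduced and 53.8 and 50.9 CPM in Control libraries (adjusted p = 0.163, and 0.0136 without uninduced replicate 1). Slc7a1, a carrier of arginine and lysine, had 59.9 and 59.8 CPM in induced, 92.8 and 82.0 CPM in uninduced and 95.2 and 77.7 CPM in Control libraries. Its induced libraries lay below all others, with a log2 fold change of -0.53 in induced over Control (interval -0.99 to -0.07, adjusted p = 0.783). The ratio of Slc7a5 to Slc38a2 counts was 0.206 and 0.190 in induced, 0.629 and 0.651 in uninduced and 0.189 and 0.202 in Control libraries.

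The aminoacyl-tRNA synthetases, which load each amino acid onto its tRNA, all lay above 0 in uninduced over Control and below 0 in induced over uninduced, but only 1 call was made among them. Of the 13, Gars was called higher in uninduced over Control (7.69%, against 2.49% of all genes), and the median log2 fold change was 0.60. At an unadjusted p under 0.05 there were 9 (69.2%, against 18.8% of all genes in either direction), and in 9 both uninduced libraries lay above both Control libraries (69.2%, against 22.1%). The count of 13 above 0 was the same under the 2 other scalings and in DESeq2, and it was 10 without uninduced replicate 2. Of all genes 49% lay above 0. The count of 13 below 0 after induction was 10 without uninduced replicate 2 and 12 without induced replicate 2, and 51.5% of all genes lay below 0. In induced over uninduced edgeR called 0 of the 13 (0.413% of all genes were called lower), with a median of -0.59 and a lowest adjusted p of 0.0749. There 9 had an unadjusted p under 0.05 (69.2%, against 15.4% of all genes), and in 10 both induced libraries lay below both uninduced libraries (76.9%, against 21.8%). DESeq2 called 3 of them lower, Eprs, Mars1 and Tars, and of all genes 379 lower.

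Gars, glycyl-tRNA synthetase, which serves both the cytosol and mitochondria, lies at chr6:55038007-55079500 on the plus strand. It had 91.6 and 65.2 CPM in induced, 109 and 159 CPM in uninduced and 60.6 and 65.1 CPM in Control libraries. Both uninduced libraries were the highest of the 6. The log2 fold change was 1.09 in uninduced over Control (SE 0.252, adjusted p = 0.0391) and -0.77 in induced over uninduced (SE 0.249, adjusted p = 0.166). The first was 0.78 (adjusted p = 0.0629) without uninduced replicate 2 and lost its call without either Control library too (adjusted p = 0.159 and 0.157). The second was past the threshold without uninduced replicate 1 (-0.97, adjusted p = 0.0221), as were those of Mars1 (-1.03, adjusted p = 0.0243) and Tars (-0.90, adjusted p = 0.0367).

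Next to Gars, several synthetases had close uninduced pairs clear of the other libraries. Eprs, which joins glutamyl- and prolyl-tRNA synthetase in 1 protein, had 318 and 287 CPM in induced, 469.8 and 491 CPM in uninduced and 323 and 315 CPM in Control libraries (0.59 in uninduced over Control, adjusted p = 0.0669). Tars, for threonine, had 73.1 and 55.9 CPM in induced, 111 and 125 CPM in uninduced and 74.9 and 65.3 CPM in Control libraries (0.75, adjusted p = 0.0793). Aars, for alanine, had 77.7 and 75.8 CPM in induced, 112 and 120.3 CPM in uninduced and 79.5 and 80.1 CPM in Control libraries (0.54, adjusted p = 0.137). In each of these 3 genes the induced and Control libraries were close together and both uninduced libraries stood above them. Exosc6 lies within Aars, is identical to it over 1326 bases and has no count of its own, so its reads may be counted in Aars.

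Iars, Lars, Mars1, Nars and Yars, for isoleucine, leucine, methionine, asparagine and tyrosine, likewise had both uninduced libraries above all others, with log2 fold changes in uninduced over Control from 0.60 for Iars to 0.92 for Mars1. Mars1 had 53.2 and 40.2 CPM in induced, 71.8 and 99.1 CPM in uninduced and 47.3 and 42.8 CPM in Control libraries (adjusted p = 0.0688, and 0.0136 without uninduced replicate 1). Its end overlaps that of Ddit3 on the opposite strand, and reads from the shared stretch cannot be told apart. The exceptions were Sars, Vars, Wars and Cars, for serine, valine, tryptophan and cysteine, in which the uninduced and Control libraries overlapped. Sars had 49.7 and 50.6 CPM in induced, 35.3 and 81.4 CPM in uninduced and 46.3 and 45.5 CPM in Control libraries. Vars had 193 and 217 CPM in induced, 176 and 333 CPM in uninduced and 205 and 159.6 CPM in Control libraries. In both genes uninduced replicate 1 was below replicate 2, which was the highest of the 6. Vars was called in uninduced over Control without uninduced replicate 1 (0.81, adjusted p = 0.0354).

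Eprs, Iars, Lars and Mars1 are subunits of the multisynthetase complex. These 4 had log2 fold changes of 0.59 to 0.92 in uninduced over Control and of -0.87 to -0.51 in induced over uninduced. The 9 members outside it spread more widely, at 0.22 to 1.09 and -0.88 to -0.08. Whether subunits and other synthetases differ was not tested. In induced over Control the 13 synthetases ranged from -0.12 to 0.32 on the log2 scale, and the widest intervals reached down to -0.79, in Cars, and up to 0.90, in Sars.

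**Figure D3:**
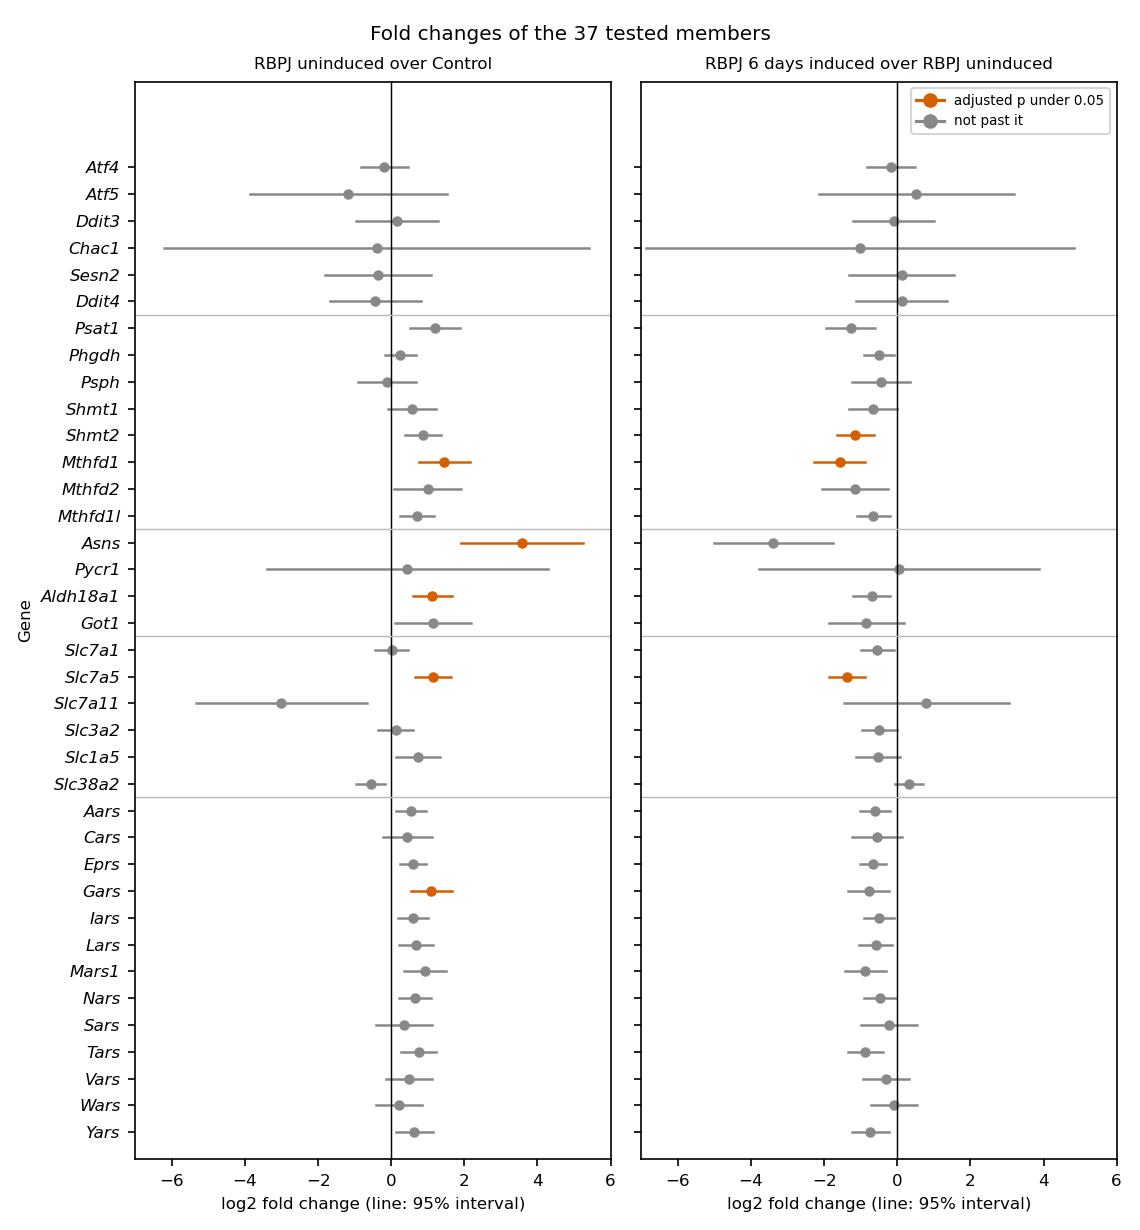
Points are log2 fold changes of the 37 tested members and lines their 95% intervals, for RBPJ uninduced over Control (left) and RBPJ 6 days induced over RBPJ uninduced (right), and orange marks an adjusted p under 0.05. The same uninduced libraries enter both panels, and 5 genes are orange on the left and 3 on the right.

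Related genes outside the 38 gave the setting. Their calls stand beside those of all genes, of which edgeR called 2.49% higher and 2.93% lower in uninduced over Control. In induced over uninduced it called 1.55% of all genes higher and 0.413% lower. An unadjusted p under 0.05 was found for 18.8% of all genes in the first comparison and 15.4% in the second. In the first, 49% of all genes lay above 0. DESeq2 called 719 genes higher and 942 lower in the first, and 662 higher and 379 lower in the second. Of 10 other cytosolic synthetases and scaffold genes, edgeR called 0 in uninduced over Control (3 at an unadjusted p under 0.05, 1 by DESeq2), 9 of them above 0 and a median of 0.41. Of 17 mitochondrial synthetases 2 were called higher. Lars2 had 1416 and 1752 CPM in induced, 1328 and 2068 CPM in uninduced and 777 and 748 CPM in Control libraries (1.16, adjusted p = 0.0195), which makes up most of the summed level of this list. Whether other sequences share reads with Lars2 was not checked. Mars2 had 17.8 and 24.8 CPM in induced, 35.1 and 35.2 CPM in uninduced and 14.8 and 12.6 CPM in Control libraries (1.35, adjusted p = 0.0392). In induced over uninduced 0 of the 17 were called (1 at an unadjusted p under 0.05, 0 by DESeq2).

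Upstream of ATF4, 1 of 10 genes for eIF2 kinases, phosphatases and subunits was called higher in uninduced over Control. It was Eif2b5, a subunit of the factor that recharges eIF2, with 63.6 and 57.9 CPM in induced, 83.5 and 87.2 CPM in uninduced and 50.1 and 40.2 CPM in Control libraries (0.91, adjusted p = 0.0414). Of 7 bZIP partners, Nfe2l2, the master regulator of the antioxidant response, was called higher (0.85, adjusted p = 0.0479). Of 16 other ATF4-linked genes 12 were tested. Eif4ebp1, an inhibitor of cap-dependent translation that ATF4 induces, was called higher (1.56, adjusted p = 0.0307), with 22.3 and 16.5 CPM in induced, 31.5 and 44.9 CPM in uninduced and 11.7 and 14.3 CPM in Control libraries. Slc38a1, a glutamine carrier, was called lower (-0.66, adjusted p = 0.0492), with 232 and 230.5 CPM in induced, 188 and 193 CPM in uninduced and 285 and 319.8 CPM in Control libraries. None of these 3 lists had a call in induced over uninduced by edgeR, with 6, 1 and 2 genes at an unadjusted p under 0.05. DESeq2 called 1 higher and 2 lower in the eIF2 list, 0 among the bZIP partners and 1 lower among the other ATF4-linked genes. Of all genes, 15.4% had an unadjusted p under 0.05 there, and DESeq2 called 662 higher and 379 lower.

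Chaperones of the endoplasmic reticulum, folate and nucleotide enzymes and cell cycle genes also held calls. Of all genes, 2.49% were called higher in uninduced over Control and 0.413% lower in induced over uninduced. Of 12 chaperone and folding genes, 6 were called higher in uninduced over Control, among them Calr, a calcium-binding chaperone of glycoproteins (1.53, adjusted p = 0.00181), and Hsp90b1, the HSP90 of this compartment (1.14, adjusted p = 0.00485), and 3 were called lower in induced over uninduced. Calr had 626 and 748 CPM in induced, 1336 and 1305 CPM in uninduced and 486 and 426 CPM in Control libraries. Of 12 other folate, nucleotide and one-carbon genes 3 were called higher in uninduced: Cad and Atic, of pyrimidine and purine synthesis, and Gart. Cad, with 107 and 105 CPM in induced, 216 and 270.5 CPM in uninduced and 113 and 103 CPM in Control libraries, was also called lower in induced over uninduced (-1.195, adjusted p = 0.0165). Of 10 cell cycle genes 5 were called higher in uninduced over Control, and 3 were called lower in induced over uninduced. In uninduced over Control all 10 lay above 0, against 49% of all genes, with a median of 0.75. None of 6 p53-linked genes was called in the comparisons by edgeR or DESeq2. At an unadjusted p under 0.05 there were 2 in each comparison with uninduced and 0 in induced over Control. Of all genes, 18.8% were so in uninduced over Control, 15.4% in induced over uninduced and 5.17% in induced over Control.

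Summed over each library, the cell cycle genes had 2505 and 2162 CPM in induced, 3652 and 4306 CPM in uninduced and 2285 and 2142 CPM in Control libraries. The 13 synthetase members had 1228 and 1182 CPM in induced, 1598 and 1983 CPM in uninduced and 1198 and 1137 CPM in Control libraries, and the 8 serine and one-carbon members had 413 and 366 CPM in induced, 696 and 865 CPM in uninduced and 480.5 and 384 CPM in Control libraries. Uninduced replicate 2 was the highest library in all 3 of these sums, and uninduced replicate 1 the next. The sum of the ATF4 pathway members did not follow that order, with 222 and 208 CPM in induced, 168 and 309 CPM in uninduced and 207 and 333 CPM in Control libraries. Atf4 alone makes up most of it, with 179.6 and 172 CPM in induced, 147 and 249 CPM in uninduced and 171 and 281 CPM in Control libraries. The myeloid sum was also highest in both uninduced libraries, while the B-lineage sum was high in uninduced replicate 2 and, at 30.3 CPM, not in replicate 1. The part of cell division or of these markers in the levels of the members was not tested.

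**Figure D4:**
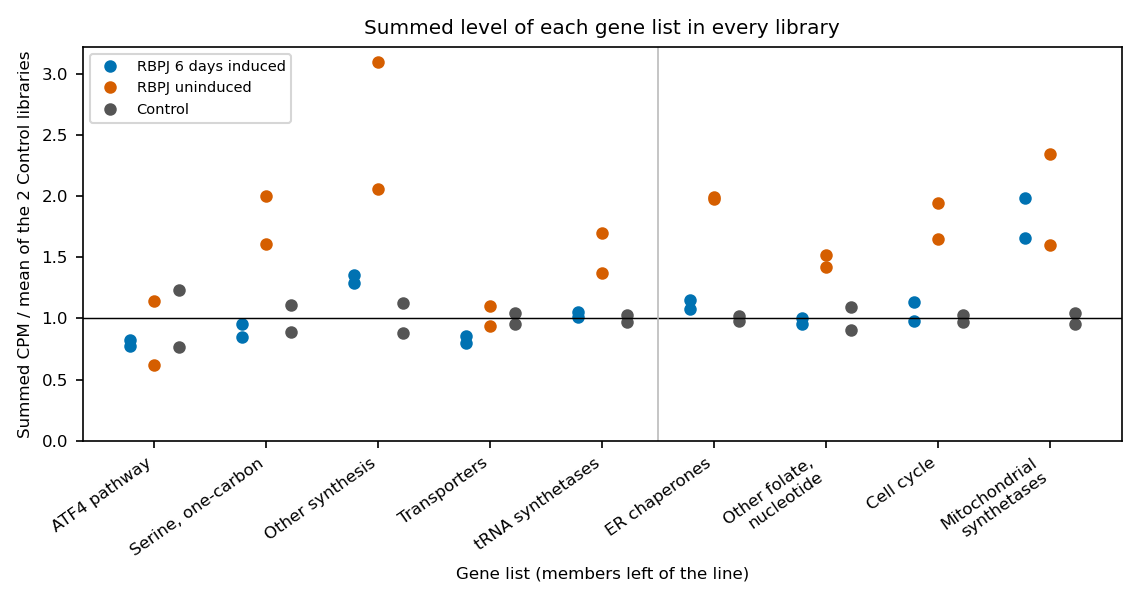
Each point is the summed CPM of a gene list in 1 library divided by the mean of the 2 Control libraries, for the 5 groups of members (left of the grey line) and 4 related lists. The serine and one-carbon, other synthesis and synthetase sums are above 1.3 in both uninduced libraries, as are the chaperone, folate and cell cycle sums, while the ATF4 pathway and transporter sums lie on both sides of 1. The mitochondrial synthetase sum is above 1.3 in both uninduced libraries (1.60 and 2.34) and in both induced libraries (1.66 and 1.99). The ATF4 pathway sum is mostly Atf4.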

How the data were processed

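RNA of sorted DN1a/b thymus cells was measured in 6 libraries, 2 each of RBPJ 6 days induced, RBPJ uninduced and Control mice, grouped by sample title. The authors deposited whole-number read counts per Ensembl gene, not normalized. Per the submitters' processing notes the tools were HISAT2, StringTie and HTSeq, with build mm10. Their versions, the strand used in counting and the release of the annotation were not given in the sources used here. Gene names and positions came from GENCODE M21 on GRCm38, the build of mm10 (47310 of 47729 IDs matched), and sequences from RefSeq (GRCm38.p6). Mars1 was found through its RefSeq synonym Mars.

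The main test used edgeR 4.0.16 under R 4.3.3. filterByExpr (minimum count 10, minimum total 15) kept 18174 genes, libraries were scaled by TMM (factors 0.824 to 1.13), and all 6 entered 1 quasi-likelihood fit with a mean per group, 3 residual degrees of freedom and a spread shared by the groups. P-values were Benjamini-Hochberg adjusted over all genes tested (threshold 0.05). The SE is the fold change divided by the square root of F, and intervals are at 95%. Alternatives were DESeq2 1.42.0, other scalings and filters, 4-library fits, a replicate block, and each library left out in turn. The scripts were tested on simulated data. The libraries of each group differed beyond counting noise (chi-square per degree of freedom 54.1 in uninduced, 20.6 in Control and 16.4 in induced), so none was counted as a duplicate. The fit shares 1 spread over the groups, which may be too small for the uninduced libraries, and p-values of comparisons with them may then be too low. Mitochondrially encoded genes took 18.2% of counts in uninduced replicate 2 and 10.2% to 13.6% elsewhere. Floors and depths cover counting error only.

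The members and all gene lists were chosen with earlier results of these data known. All 38 members are described; of each other list up to 4 genes past the threshold with the smallest p could be named, besides Rbpj, and promoter stretches of called members with the motif. Chac1, Trib3 and Slc7a11 stretches, Kit, Pax5 and Ptcra were chosen after their values were seen. Copies were found with blastn 2.17.0. Copies and overlapping genes were looked for in the 38 members only.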

Additional observations from a re-analysis of the deposited data

How the results depend on the processing

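Members called higher in RBPJ uninduced over Control numbered 5, against 9 by DESeq2, 8 with no filter on low counts, 0 in a fit of the 4 compared libraries alone and 0 to 11 when a library was left out (0 without Control replicate 2, 2 without Control replicate 1, 11 without uninduced replicate 1). Members called lower there numbered 0, against 2 by DESeq2, 1 with no filter and 0 to 1 when a library was left out. Members called lower in RBPJ 6 days induced over uninduced numbered 3, against 8 by DESeq2, 5 with no filter, 0 in the 4 libraries alone and 0 to 8 when a library was left out (0 without either induced library, 8 without uninduced replicate 1). Of members not called in uninduced over Control with all 6 libraries, Slc7a11 alone gained a call when a Control library was left out (replicate 1). In induced over Control no member was called under any of the 13 alternatives. The fits with fewer libraries have fewer residual degrees of freedom, and why the counts of calls changed was not tested.

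Of all genes, 985 were called in uninduced over Control (DESeq2 1661, no filter 1540, 4 libraries 219, a library left out 445 to 2000), 357 in induced over uninduced (1041, 989, 71, 171 to 1374) and 34 in induced over Control (212, 304, 177, 30 to 337, and 52 with TMM computed without mitochondrially encoded genes). Same-numbered replicates did not deviate together (correlations -0.025, 0.014 and 0.016), so the numbers were not taken as pairs. With the replicate block the members lower in induced over uninduced numbered 5, the genes called in induced over Control numbered 108, and Ddit3 changed sign to 0.0814 in induced over uninduced.

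Of 1430 member values under alternatives 71 changed sign, in 0 of which a call stood on either side. When a library was left out Atf4 ranged from -0.62 to 0.11 in uninduced over Control and from -0.45 to 0.27 in induced over uninduced, Ddit3 from -1.01 to 0.74 and from -0.66 to 1.08, Slc3a2 in uninduced over Control from -0.0897 to 0.23, and Vars there from -0.0766 to 0.81. RLE scaling moved the median of all genes in uninduced over Control to -0.08, from -0.02, and DESeq2 gave -0.42. In induced over uninduced DESeq2 called 662 genes higher and 379 lower, against 282 and 75 by edgeR. Trib3, Chac1, Pycr1 and Atf5 had at most 32 counts in any library. Chac1 had 0 counts in Control replicate 1, the deepest library, and 19 in the shallower Control replicate 2, so spread between replicates also limited it.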

Other observations

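Some stress genes outside the members differed widely between the RBPJ uninduced libraries, and the genes named here were chosen after their values were seen. Ppp1r15a, which returns eIF2 to its unphosphorylated form, had 347 and 273 CPM in RBPJ 6 days induced, 110.4 and 350.2 CPM in RBPJ uninduced and 259.5 and 317.5 CPM in Control libraries. Atf3, a stress-induced partner of ATF4, had 43.4 and 29.6 CPM in induced, 19.5 and 82.6 CPM in uninduced and 21.9 and 50.95 CPM in Control libraries. Vldlr, a lipoprotein receptor that ATF4 can induce, went the other way, with 49.55 and 3.23 CPM in uninduced replicates 1 and 2, against 0.533 and 7.61 CPM in Control. Hars, the synthetase for histidine, had 48.7 and 104 CPM in uninduced replicates 1 and 2 and had the largest fold change over Control of the 10 other cytosolic synthetases and scaffolds, without a call (1.10, adjusted p = 0.110).

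Control replicate 2, the library with 23.7 CPM of Slc7a11, also had 837 CPM of the 8 later thymocyte markers. Control replicate 1 had 1.90 CPM of Slc7a11 and 374 CPM of these markers. A link between the gene and the markers was not tested.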
